A study of Mus musculus with 2 samples.

Results

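Semaphorins are guidance cues and plexins and neuropilins are their receptors. The genes were chosen by name: in both gene tables, protein-coding genes of GENCODE mouse on GRCm38 whose symbols belong to the semaphorin classes 3 to 7, to the plexins or to the neuropilins were kept. That gave 31 genes (20 semaphorins, 9 plexins and 2 neuropilins) on 17 chromosomes, out of 21474 protein-coding genes and 43346 gene rows. RNA was sequenced from the embryonic facial prominence, the tissue that forms the face, of B6NCrl mouse embryos at embryonic day 13.5. Each of 2 libraries, called replicate 1 and replicate 2 as in the labels, was made from 10 ng of RNA over 200 nt with spike-in RNAs added. The embryos of both sexes were pooled, the biosamples were separate, and both carry 1 donor identifier, so the spread between the libraries need not be that between embryos. Both libraries form 1 group of healthy embryos with no treatment or mutation in the labels, so no contrast between conditions exists and no test was made.

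A semaphorin binds a plexin through the folded domain that gives the family its name, and the plexin then changes the actin skeleton and the adhesion of the cell that carries it. Most secreted class 3 semaphorins first need a neuropilin, which holds the ligand and pairs with a class A plexin, whereas the membrane-bound classes mostly bind plexins directly. In the developing head these signals are known for steering trigeminal axons, neural crest cells and blood vessels. In bulk tissue, a lower level can come from fewer cells of a type or from less RNA per cell, and these cannot be told apart.

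The gene tables held 28542452 expected counts in gene rows in replicate 1 and 22719352 in replicate 2. A limit of 3 counts, which covers counting error only, corresponded to 0.105 CPM in replicate 1 and 0.132 CPM in replicate 2 (CPM, counts scaled to library size). All 6 mesenchyme markers and all 6 epithelium markers were at 1 TPM (length-corrected transcript abundance) or more in both libraries, with summed levels of 1025.3 and 1025.2 TPM for mesenchyme and of 1255 and 1207 TPM for epithelium. Endothelium markers, 6 of 6 at that level, summed to 198 and 212 TPM, and neuron markers, 5 of 6, to 188 and 232 TPM. Of 6 forebrain and eye markers 1 reached the level, and another, Crx, was at 0 in replicate 2. Replicate 2 stood apart in liver genes: the 5 liver markers summed to 3.52 TPM in replicate 1 and to 203.1 TPM in replicate 2, and the 5 heart markers to 2.64 and 25.2 TPM. Cartilage markers summed to 421 and 562 TPM, glia markers to 48.2 and 62.5 TPM, and erythroid markers to 7733 and 9825 TPM. Muscle markers summed to 186 and 226 TPM, bone markers to 1445 and 1281 TPM, and macrophage markers to 65.1 and 73.8 TPM. Of the muscle markers only Actc1 was higher in replicate 2, at 86.7 and 141.9 TPM.

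Coding transcripts of several genes, among them Sema6a and Sema6c, differ in coding length. Alternative coding exons were compared in 3 genes, and their sequences are shown because the measured transcript levels below turn on them. They were read from GENCODE M21 transcripts on GRCm38, 5′ to 3′. In the first Nrp2 sequence (chr1:62786281-62786316, plus strand) the capitals mark 15 bases that a downstream splice donor adds. The second (chr1:62812534-62812584, plus strand) is a 51-base coding exon, all in capitals. The next pair are the last 60 bases of the reading frames known as Nrp2a (chr1:62815578-62815637) and Nrp2b (chr1:62795930-62795989), with the stop codon in capitals. The last pair are whole coding exons, in capitals, of Sema6d (chr2:124660705-124660761, plus strand, 57 bases) and Sema3f (chr9:107691356-107691448, minus strand, 93 bases). The 15-, 51-, 57- and 93-base stretches are each a multiple of 3 long and keep the reading frame.
Nrp2 exon with the added bases: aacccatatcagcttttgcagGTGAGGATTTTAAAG
Nrp2 51-base exon: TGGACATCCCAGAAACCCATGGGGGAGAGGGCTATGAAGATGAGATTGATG
Nrp2a end: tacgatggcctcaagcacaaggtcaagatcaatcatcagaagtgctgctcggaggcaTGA
Nrp2b end: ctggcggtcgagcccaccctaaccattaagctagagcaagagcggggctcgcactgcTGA
Sema6d 57-base exon: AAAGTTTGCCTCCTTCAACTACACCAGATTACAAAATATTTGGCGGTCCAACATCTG
Sema3f 93-base exon: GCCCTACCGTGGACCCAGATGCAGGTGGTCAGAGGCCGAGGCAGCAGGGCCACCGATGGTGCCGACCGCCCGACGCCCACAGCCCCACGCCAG

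Of the 31 genes, 28 were detected, meaning 1 TPM or more in both libraries, beside 60.9% of all protein-coding genes. The 3 below that level were Sema3g, Plxnb3 and Sema7a. Levels reached 10 TPM in both libraries for 14 of the 31 genes, beside 39.5% of protein-coding genes, and 20 TPM for 6, beside 28.5%. The 6 were Plxnb2, Sema6a, Nrp1, Nrp2, Sema3f and Sema3a. The median level over the 31 genes was 8.98 TPM, against 4.68 TPM over all protein-coding genes. Over detected genes alone it was 11.5 TPM for the 28 members and 18.9 TPM for 13078 protein-coding genes, so the detected members lay below the middle of the detected genes. The 20 semaphorins together had 251.1 ± 9.26 TPM (mean ± SD, n = 2 libraries, as in all ± values here) and the 11 receptors 251.9 ± 17.5 TPM. The difference between these sums was smaller than the spread between the libraries.

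**Figure D1:**
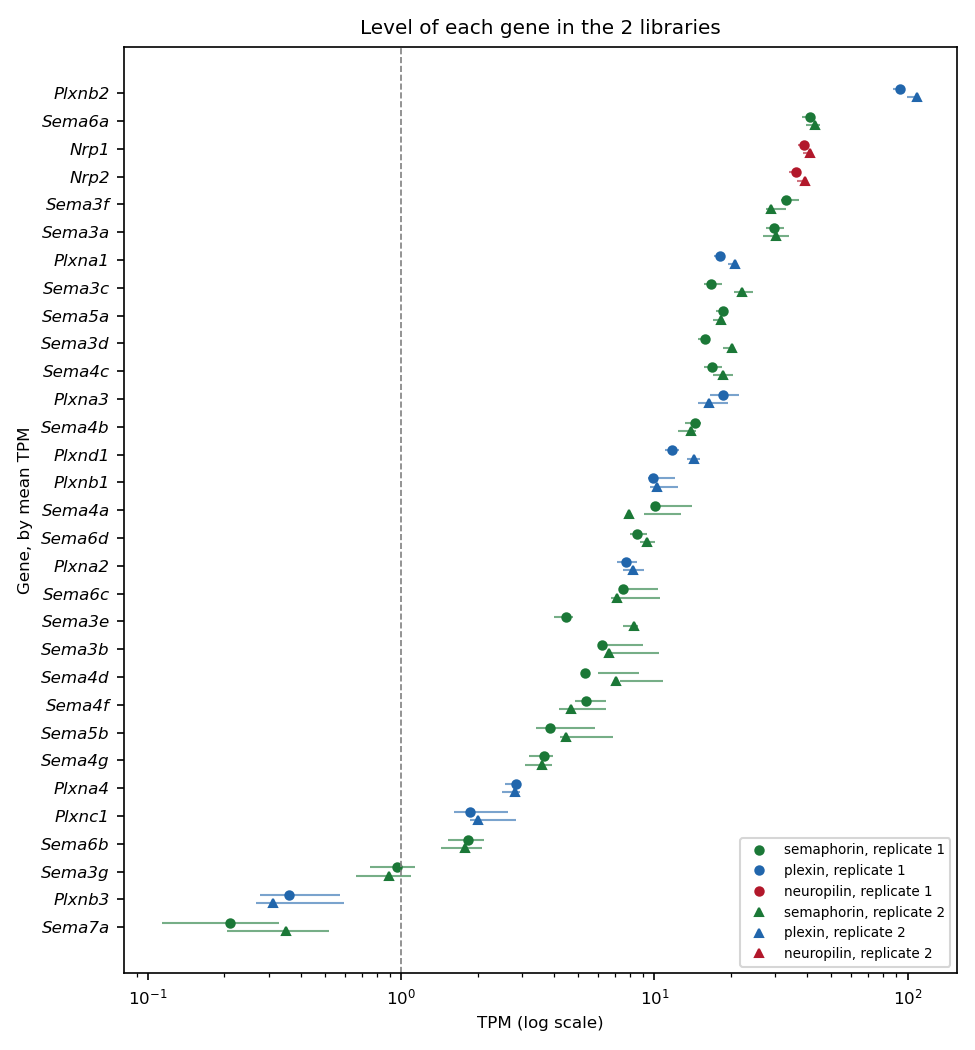
Level of each of the 31 genes in TPM on a log axis, replicate 1 as circles and replicate 2 as triangles; horizontal lines are the deposited credibility intervals and the dashed line marks 1 TPM. Plxnb2 stands above the rest at 93.2 and 108.6 TPM, Sema3e has the widest gap between libraries among detected genes (4.49 and 8.33 TPM), and Sema3g, Plxnb3 and Sema7a lie below the line.

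The order of the 31 genes was sharp in few places. Neighbours were called apart where the deposited credibility intervals did not overlap in either library and the order was the same in both, and 6 of the 30 neighbouring pairs met this. These steps separated Plxnb2 from Sema6a, Sema3a from Plxna1, Plxna3 from Sema4b, Sema4g from Plxna4, Sema6b from Sema3g, and Sema3g from Plxnb3. In 14 of the 30 pairs the order turned between the libraries. The deposited TPM lay outside its own interval in both libraries for Sema4a, Sema3b and Sema4d, and in replicate 2 for Nrp1, so the places of these 4 genes are less certain than their intervals show.

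Among the ligands, the secreted class 3 semaphorins had the highest summed level, 112.2 ± 7.21 TPM over 7 genes, 6 of them detected. Sema3f, which acts mainly through Nrp2, had 33.1 TPM in replicate 1 and 28.9 TPM in replicate 2. Sema3a, the classical repellent of sensory axons and a ligand of Nrp1, had 29.8 and 30.2 TPM. These were the highest of the class, and they were not apart from each other (log2 ratio of Sema3a to Sema3f -0.05 ± 0.15).

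Sema3c, which binds both neuropilins and is known for guiding neural crest cells into the cardiac outflow tract, had 16.7 and 22.1 TPM and lay below Sema3a (log2 ratio -0.64 ± 0.27, apart, and -1.38 ± 0.33 on protein-coding transcripts alone). Sema3d, another neuropilin ligand, had 15.9 and 20.2 TPM. Sema3e, which binds Plxnd1 without a neuropilin, had 4.49 and 8.33 TPM, below Sema3d in both libraries (log2 ratio of Sema3d to Sema3e 1.55 ± 0.38, apart). Of this group, Sema3c, Sema3d and Sema3e were each higher in replicate 2, whereas the TPM values of Sema3a were nearly equal. On counts scaled for depth, Sema3a was lower in replicate 2, at a ratio of 0.930 (0.881 to 0.983). Sema3b had 6.23 and 6.59 TPM, and Sema3f lay above it by 2.27 ± 0.19 on the log2 scale. Sema3g, known mainly from blood vessels, was the lowest of the class at 0.96 and 0.89 TPM, with 90 and 64 counts.

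The class 6 semaphorins, which span the membrane and bind class A plexins directly, summed to 60.2 ± 1.68 TPM. Sema6a, a ligand of Plxna2 and Plxna4, carried most of this at 41.1 and 43.1 TPM and was the highest semaphorin in both libraries. On protein-coding transcripts alone Sema6a had 18.5 and 19.1 TPM, below Sema3a and Sema3f in both libraries. Sema6d, a Plxna1 ligand known from heart development, had 8.55 and 9.38 TPM, and Sema6c had 7.52 and 7.10 TPM. Sema6b was the lowest of the class at 1.83 and 1.78 TPM. Sema6a exceeded Sema6d by 2.23 ± 0.05 on the log2 scale, and Sema6b lay below Sema6c by a log2 ratio of -2.02 ± 0.03, both apart in both libraries. On protein-coding transcripts alone the class summed to 31.7 ± 1.65 TPM, and these ratios shrank to 1.31 ± 0.13 and -0.92 ± 0.18.

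The class 4 semaphorins, membrane proteins that mostly bind class B plexins, summed to 55.8 TPM in each library, spread over 6 detected genes. Sema4c, a ligand of Plxnb2, was the highest at 16.9 and 18.6 TPM. Sema4b followed at 14.5 and 13.9 TPM. Sema4a, known from retina and the immune system, had 10.0 and 7.94 TPM.

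Sema4d, a ligand of Plxnb1 known in lymphocytes as CD100, had 5.34 and 7.07 TPM, and Sema4c exceeded it (log2 ratio 1.53 ± 0.19, apart). Sema4f had 5.36 and 4.70 TPM, below Sema4a (log2 ratio of Sema4a to Sema4f 0.83 ± 0.10, apart). On protein-coding transcripts alone this ratio was 0.52 ± 0.28, and the call rests on Sema4a intervals that lie above its TPM. Sema4g, another Plxnb2 ligand, had 3.65 and 3.59 TPM, below Sema4b (log2 ratio of Sema4b to Sema4g 1.97 ± 0.03, apart). The class thus ran from the Plxnb2 ligand Sema4c at its top to the Plxnb2 ligand Sema4g at its foot.

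Class 5 semaphorins carry thrombospondin repeats beside the semaphorin domain. Sema5a had 18.6 and 18.3 TPM and Sema5b 3.86 and 4.47 TPM, a log2 ratio of 2.15 ± 0.16 that was apart in both libraries. Sema7a, which is held in the membrane by a lipid anchor and acts through Plxnc1 and integrins, was the lowest of all 31 genes at 0.21 and 0.35 TPM, from 14 and 18 counts. These counts lie above the limit of 3, which covers counting error only. Reads were thus assigned to Sema7a in both libraries, at a very low level.

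Among the receptors, both neuropilins were high. Nrp1, on chromosome 8 at 128358604 to 128503363 of GRCm38, holds Sema3a and also vascular endothelial growth factor, and had 39.0 TPM in replicate 1 and 41.3 TPM in replicate 2. Nrp2, on chromosome 1 at 62703285 to 62818695, prefers Sema3f and had 36.1 and 39.3 TPM. They differed by 0.09 ± 0.03 on the log2 scale, in the same direction in both libraries, and were not called apart because their intervals, separate in replicate 1, overlapped in replicate 2.

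The class A plexins, which pair with neuropilins, summed to 47.8 ± 0.573 TPM. Plxna1 had 18.1 and 20.8 TPM and Plxna3 18.7 and 16.4 TPM, and their order turned between the libraries (log2 ratio 0.15 ± 0.28). Plxna2 had 7.75 and 8.26 TPM, below Plxna1 (log2 ratio of Plxna1 to Plxna2 1.28 ± 0.07, apart). Plxna4, known for its part in sensory and sympathetic axons, was the lowest at 2.84 and 2.81 TPM, below Plxna2 (2.83-fold on average, apart). On protein-coding transcripts alone the mean of Plxna3 was 8.66 TPM, nearer to the 6.41 TPM of Plxna2 than to the 19.5 TPM of Plxna1. The place of Plxna3 in the class thus depended on which transcripts were summed. All transcripts of Plxna1 are annotated as protein coding, so by annotation its level could not fall in this comparison.

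The class B plexins, which carry a binding motif for RhoA exchange factors, summed to 111.2 ± 11.1 TPM, or 57.7 ± 6.88 TPM on protein-coding transcripts alone, and most of this was 1 gene. Plxnb2, on chromosome 15 at 89155549 to 89180788 and known for its role in neural tube closure, had 93.2 and 108.6 TPM, the highest of the 31 genes in both libraries. Plxnb1 had 9.86 and 10.2 TPM, below Plxnb2 by a log2 ratio of 3.33 ± 0.12, and Plxnb3 had 0.36 and 0.31 TPM from 38 and 30 counts, below Plxnb1 by 4.91 ± 0.19. Both steps were apart. Plxnd1, known from endothelial cells, had 11.7 and 14.3 TPM, and Plxnc1, the receptor of Sema7a, had 1.86 and 2.00 TPM, a log2 ratio of 2.75 ± 0.13 that was apart.

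Known ligand and receptor partners were set side by side in 6 pairs, and 4 were apart. Sema3a lay below Nrp1 by a log2 ratio of -0.42 ± 0.05, Sema3e below Plxnd1 by -1.08 ± 0.43, Sema4c below Plxnb2 by -2.50 ± 0.06 and Sema7a below Plxnc1 by -2.83 ± 0.45. The remaining pairs, Sema3f with Nrp2 (-0.28 ± 0.22) and Sema4d with Plxnb1 (-0.71 ± 0.25), were not called apart, although the ligand was lower in both libraries in each. The 6 pairs do not cover all known partners: Sema6a, at a mean of 42.1 TPM, lay above its receptors Plxna2, at 8.01 TPM, and Plxna4, at 2.83 TPM. On protein-coding transcripts alone, Sema4c had 17.1 TPM and Plxnb2 48.3 TPM on average, so that gap narrowed. Of the 17 pairs within a family, 14 were apart. The exceptions were Nrp1 with Nrp2, Plxna1 with Plxna3 and Sema3a with Sema3f.

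Part of these gene levels lay on transcripts that are not annotated as protein coding. The 31 genes had 185 transcript rows, of which 184 could be named, and 24 of the 28 detected genes had more than 1. Transcripts annotated as protein coding held a median of 80.3% of the TPM of these 24 genes, against 90.6% over the 9566 detected protein-coding genes with more than 1 transcript. The leading transcript was annotated as other than protein coding in 2 of the 24, against 9.66% of such genes, and it differed between the libraries in 4, against 10.4%. By expected counts, 0 of the 24 had such a leader, against 5.25%. The leading transcript held under 50% of the TPM in 9 of the 24, against 25.2%. Averaged over the libraries, protein-coding transcripts held under 50% of the TPM in Plxnb2, Sema6a, Sema6c and Plxna3, although in replicate 2 they held 52.1% in Sema6c and 53.5% in Plxna3.

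**Figure D2:**
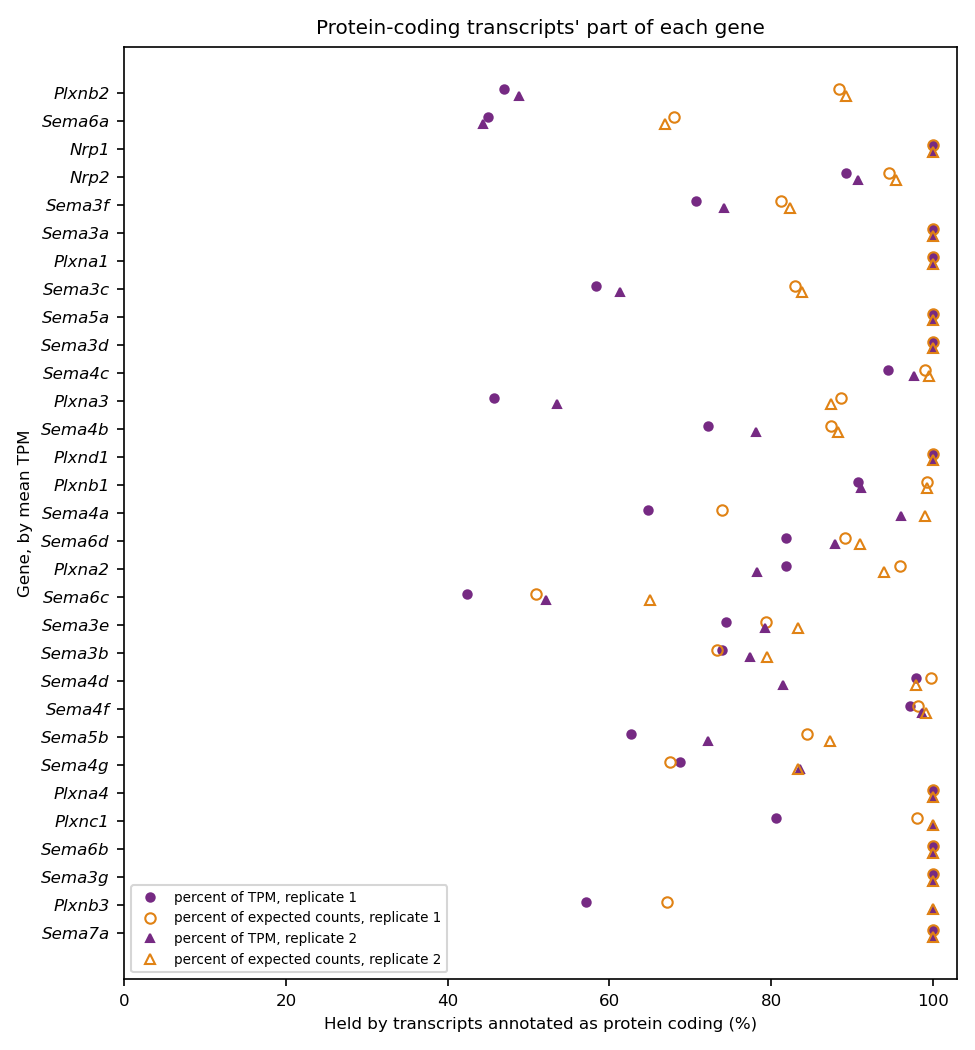
Percent of each gene's TPM (filled) and of its expected counts (open) held by transcripts annotated as protein coding, replicate 1 as circles and replicate 2 as triangles, genes ordered by mean TPM. Plxnb2, Sema6a, Sema6c and Plxna3 average under 50% of TPM, and for Plxnb2 the percent of counts is 88.4 and 89.2, because short transcripts weigh more in TPM than in counts.

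In Plxnb2, an annotated processed transcript of 841 nt, Plxnb2-205, stood at 47.4 TPM in replicate 1 and at 48.0 in replicate 2. The full-length coding transcript Plxnb2-202, of 6377 nt, had 40.1 and 50.8 TPM, so the short one led in replicate 1 and the coding one in replicate 2. The short transcript held 11.3% and 9.55% of the gene's counts, and the coding transcripts of Plxnb2 together held 88.4% and 89.2%. On coding transcripts alone Plxnb2 had 48.3 ± 6.55 TPM and was still first of the 31 genes. Its ratio to Plxnb1 was then 2.40 ± 0.16 on the log2 scale.

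In Sema6a, the retained-intron transcript Sema6a-209 (3328 nt) led with 12.3 and 13.8 TPM, beside the coding Sema6a-201 at 11.6 and 11.4 TPM, with overlapping intervals in both libraries. By expected counts Sema6a-201 led, with 50.2% and 48.1% of the gene against 25.5% and 27.8% for Sema6a-209. Coding transcripts of Sema6a held 44.6 ± 0.441% of its TPM, or 18.8 ± 0.445 TPM, which moved it from second to place 7. Of the genes then above it, Nrp1, Sema3a and Plxna1 have only transcripts annotated as protein coding, so their levels could not fall. In Plxna3 the coding Plxna3-201 had 8.55 and 8.77 TPM, 49.6 ± 5.55% of the gene, and 88.7% and 87.4% of its counts. With coding transcripts alone the log2 ratio of Plxna1 to Plxna3 was 1.16 ± 0.11. In Sema6c the coding Sema6c-201 had 3.19 and 2.91 TPM, and the nonsense-mediated decay transcript Sema6c-212 had 2.23 and 1.07 TPM. The intervals of these Sema6c transcripts overlapped in both libraries.

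The class 3 genes differed in this respect. All 5 transcripts of Sema3a are annotated as protein coding, with Sema3a-201 at 62.2 ± 5.20% and Sema3a-202 at 24.5 ± 8.93%. In Sema3c, the retained-intron transcript Sema3c-205 held 37.9 ± 3.04% of the TPM. In Sema3f, coding transcripts held 72.4 ± 2.53%. The single transcripts of Nrp1, Sema3d, Sema5a and Plxna4 carried the whole of those genes in these tables.

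Of the 4 genes whose leading transcript differed between the libraries, Plxnb2 was described above and the other 3 are of class 4. Sema4c-201 had 6.62 and 5.18 TPM and Sema4c-208 had 3.66 and 7.47 TPM, both coding, and their order turned between the libraries with overlapping intervals. In Sema4g, the coding Sema4g-203 held 62.2% of the gene in replicate 1 and 24.2% in replicate 2, while Sema4g-201 held 6.58% and 59.3%. In Sema4a, Sema4a-201 held 23.8% and 45.8% and Sema4a-214 held 19.2% and 50.3%. The TPM of Sema4a-214 in replicate 2, 4.00, lay outside its own deposited interval, which ended at 2.70. Gene totals of Sema4g, 3.65 and 3.59 TPM, were closer between the libraries than these splits.

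In Nrp2, all 6 coding transcripts share 1 start region and differ by the exons printed above. Transcripts with the distal last coding exon, which code for Nrp2a, had 16.8 TPM in replicate 1 and 20.6 TPM in replicate 2. Those ending in the proximal exon, which code for Nrp2b, had 15.5 and 15.1 TPM. Nrp2a thus held 54.8 ± 4.01% of the coding TPM and Nrp2b 45.2 ± 4.01%, both tails being present at similar levels. The leading transcript, Nrp2-204, held 39.5 ± 3.62% of the gene.

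The bases added by the downstream donor were in transcripts holding 34.2 ± 3.03% of the coding TPM of Nrp2, and the 51-base exon in transcripts holding 10.6% in replicate 1 and 11.3% in replicate 2. With the Nrp2b tail, the 15 added bases were in Nrp2-201 at 11.3 and 11.1 TPM. With the Nrp2a tail they were in Nrp2-206 at 0.41 and 0.34 TPM and in Nrp2-203, which was listed at 0 in both libraries. The Nrp2a tail thus took 3.50% and 2.98% of the TPM with the added bases, but 20.2% and 27.4% by the deposited posterior mean TPM. The interval of Nrp2-203 nevertheless reached 4.45 and 8.37 TPM, so its level was poorly determined. By posterior mean TPM Nrp2-203 held 6.23% and 9.04% of the gene. The 34.2% above takes it as 0 and is less certain than its SD shows. In both libraries the TPM of Nrp2-204 lay near the upper end of its own interval, which ran from 8.39 to 13.4 TPM and from 6.95 to 17.0 TPM.

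**Figure D3:**
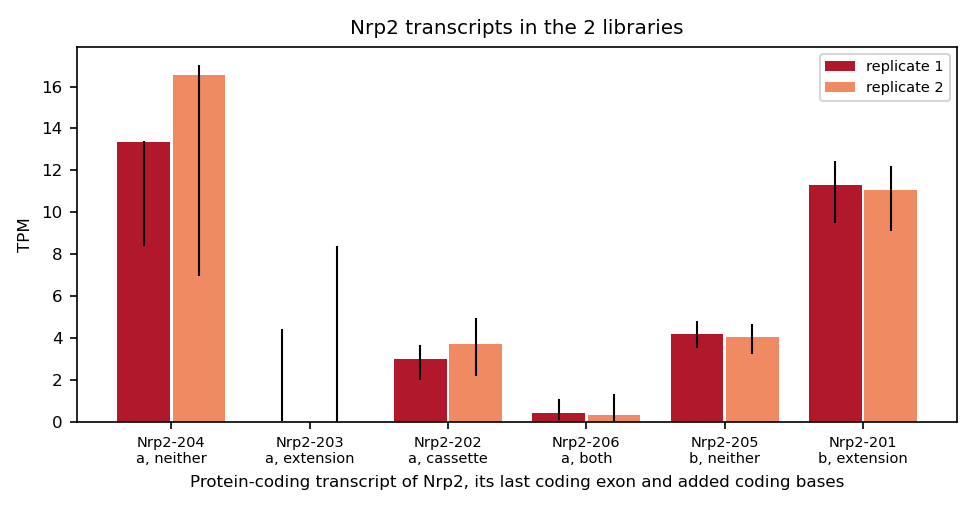
TPM of the 6 protein-coding transcripts of Nrp2 in replicate 1 (dark) and replicate 2 (light), labelled by last coding exon (a, distal, or b, proximal) and by the added 15 bases (extension) or the 51-base cassette; lines are deposited credibility intervals. Nrp2-204 at 13.4 and 16.5 TPM and Nrp2-201 at 11.3 and 11.1 TPM are the highest, and the intervals of Nrp2-203 reach 4.45 and 8.37 TPM although its bars are at 0.

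In Sema6d, the 57-base exon was in 66.8 ± 5.77% of the coding TPM, with 4.39 TPM in replicate 1 and 5.84 TPM in replicate 2 against 2.61 and 2.40 TPM without it. A longer exon of 168 bases was in 76.2 ± 0.237%. The leading transcript, Sema6d-206, holds both exons and had 3.30 and 5.14 TPM, 46.7 ± 11.5% of the gene. By posterior mean TPM Sema6d-206 held 33.3% and 45.0%, and its intervals ran from 1.76 to 4.04 and from 2.64 to 5.74 TPM. The shares of both Sema6d exons are therefore less certain than their SDs show. In Sema3f the 93-base exon was in the minority, with 19.8 ± 0.939% of the TPM of the coding Sema3f-201, Sema3f-204 and Sema3f-205. Transcripts with it had 4.44 and 4.34 TPM, against 18.7 and 16.8 TPM for Sema3f-201, which lacks it. Another coding transcript, Sema3f-211, at 0.21 and 0.28 TPM, was left out of this share. The shares of these Sema6d and Sema3f exons differed between the libraries by less than their distance from 50%.

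Promoter windows of 300 bases, from 250 before to 50 after a start site, were found in RefSeq on GRCm38.p6 for 26 of the 31 genes, 37 windows in all. The hexamer GGGCGG, searched on both strands and so also as CCGCCC, was present in 27 of the 37 (73.0%), against 35.7% of all 32851 windows. The median GC content was 63.7% in these windows and 52.7% in all, and the median ratio of observed to expected CpG was 0.579 against 0.384. TATAAA, searched on both strands of the whole window and so also as TTTATA, was in 0 of the 37 and in 13.6% of all windows. These are descriptions of letters in the windows and not of binding.

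Sema4c had 2 start sites, and they are shown because transcripts from each carried a large part of the gene. The upstream site, at 36558381 on the minus strand of chromosome 1, served transcripts holding 60.5% of the TPM in replicate 1 and 46.2% in replicate 2. The downstream site, at 36557557, served 34.0% and 51.4%, so the order of the sites turned between the libraries. The 120 bases before each start site, at chr1:36558382-36558501 and chr1:36557558-36557677 of GRCm38.p6, both hold the hexamer more than once, and the capitals mark it.
Sema4c upstream site: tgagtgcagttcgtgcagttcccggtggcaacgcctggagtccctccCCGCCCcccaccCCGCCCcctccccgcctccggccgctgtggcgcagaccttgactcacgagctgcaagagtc
Sema4c downstream site: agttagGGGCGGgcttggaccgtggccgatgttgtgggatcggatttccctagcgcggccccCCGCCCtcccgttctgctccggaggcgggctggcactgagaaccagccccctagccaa

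Some of the genes lie close together. Sema3d and Sema3a on chromosome 5 were 536465 bases apart with 0 protein-coding genes between them, and Sema3a and Sema3e were 422710 bases apart with 1 between. Their mean levels were 18.1 TPM for Sema3d, 30.0 TPM for Sema3a and 6.41 TPM for Sema3e, so neighbours on the chromosome were not alike in level. On chromosome 9, Sema3b and Sema3f were 72270 bases apart, with 3 protein-coding genes between and means of 6.41 and 31.0 TPM. On the X chromosome Plxnb3, at 0.34 TPM, lay 556551 bases from Plxna3, at 17.5 TPM, with 23 protein-coding genes between. Exons of 4 genes overlap a gene on the opposite strand, none of which exceeded 1.71 TPM in a library. They are Plxna1, Plxna4, Plxnb1 and Sema4c, and no source used here says whether reads were counted by strand.

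The ratio of replicate 2 to replicate 1 was taken from counts scaled for depth, with exact intervals that cover counting error only. It compares these libraries and no condition. Of the 31 genes, 8 had an interval above 1, against 16.5% of protein-coding genes, 6 had one below 1, against 24.3%, and 17 had one that covered 1. Over 1.5-fold higher in replicate 2 were 2 genes, Sema3e and Sema7a, against 5.74% of protein-coding genes, and 0 were over 1.5-fold higher in replicate 1, against 3.16%. Over all gene rows 12.8% were past 1.5-fold in either direction. The median log2 ratio was -0.04 over the 31 genes and -0.03 over the protein-coding genes.

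Sema3e had 599 counts in replicate 1 and 858 in replicate 2, a ratio of 1.75 (1.58 to 1.95). Sema7a had 14 and 18 counts, a ratio of 1.53 whose interval, 0.739 to 3.42, covers 1. Sema3c followed with a ratio of 1.29 (1.20 to 1.39). Among the semaphorins, Sema5b came next with 1.21 (1.01 to 1.44) and then Sema3d with 1.19 (1.12 to 1.26). Thus the ligands Sema3c, Sema3d, Sema3e and Sema5b were higher in replicate 2 beyond counting error. Lower in replicate 2 were Sema3a at 0.930 (0.881 to 0.983), Sema3f at 0.826 (0.769 to 0.888), Sema4a, Sema4f, Sema5a and Sema6c. In the same library the liver and heart markers had TPM sums 57.7 and 9.53 times those of replicate 1. Marker sums are of deposited TPM, with 13.4% and 9.68% on spike-ins, unlike the scaled counts of the gene ratios. The smaller spike-in share raises the TPM of genes in replicate 2. The sums of cartilage, glia, erythroid, neuron, muscle and macrophage markers were 1.34, 1.30, 1.27, 1.23, 1.22 and 1.13 times those of replicate 1. Bone markers were lower, at 0.887 times. The muscle rise rested on Actc1, at 86.7 and 141.9 TPM, and the other muscle markers were each lower in replicate 2. The part of any of these marker sets in the ratios was not tested.

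Of the receptors, Plxnc1 had a ratio of 1.22 (1.01 to 1.47), Plxnd1 of 1.14 (1.06 to 1.22), Plxnb2 of 1.12 (1.08 to 1.16) and Plxna1 of 1.07 (1.02 to 1.12). No receptor had an interval below 1. Both neuropilins covered 1, with Nrp1 at 0.989 (0.948 to 1.03) and Nrp2 at 1.04 (0.994 to 1.09). The lowest ratio was that of Sema6c, 0.794 (0.689 to 0.913). Markers of endothelium, where Plxnd1 is best known, summed to 1.07 times the level of replicate 1 in replicate 2. That is a ratio of deposited TPM, on which Plxnd1 had 11.7 and 14.3, and not of scaled counts. The part of the endothelium markers in the Plxnd1 ratio was not tested.

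**Figure D4:**
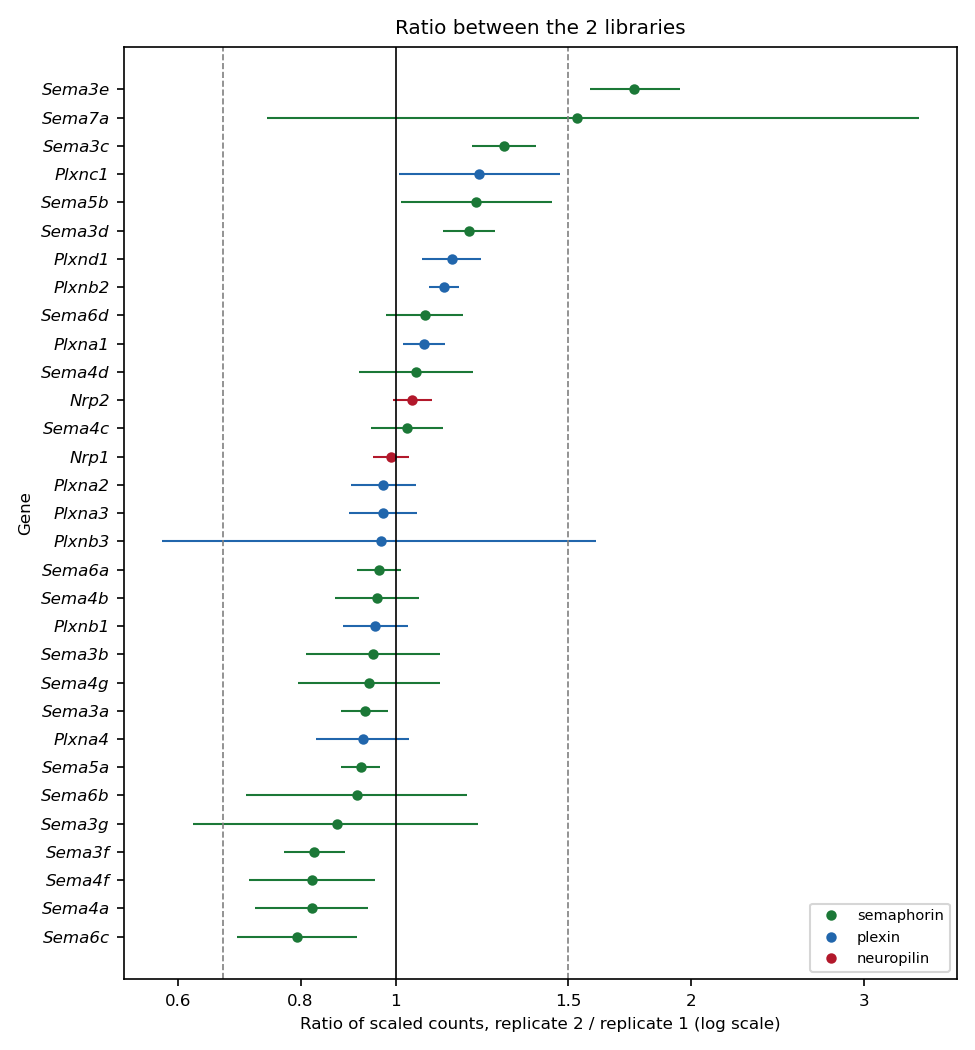
Ratio of scaled counts, replicate 2 over replicate 1, for the 31 genes on a log axis, with exact 95% intervals of counting error; the solid line is 1 and dashed lines mark 1.5-fold. Sema3e (1.75) is the single gene whose whole interval lies beyond 1.5-fold, Sema7a rests on 14 and 18 counts, and 17 intervals cross 1.

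The partners of the pathway were listed in 3 groups. Of 19 co-receptors and alternative receptors, 18 were detected, with a median of 4.39 TPM. The highest were Gpc3, a cell-surface glypican, at 557.0 and 587 TPM, Itgb1, the integrin chain through which Sema7a acts, at 163 and 183 TPM, and the endocytic receptor Lrp1 at 104 and 122 TPM. Timd2 was the member not detected, at 0 and 0.36 TPM.

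Of 35 transducers, the proteins that carry the signal to the cytoskeleton, 34 were detected, with a median of 31.1 TPM. The highest were Cfl1, the actin-severing cofilin, at 1646 and 1557 TPM, and the small GTPases Rhoa at 327 and 343 TPM and Rac1 at 258 and 252 TPM. These have many roles beside plexin signalling, so their levels are not specific to it. Rnd1 was not detected, at 0.45 and 0.38 TPM. All 8 processing enzymes, which cleave semaphorins or their receptors, were detected, with a median of 21.8 TPM. Mmp14, a membrane metalloprotease, had 148 and 152 TPM, Adam10 45.7 and 54.5 TPM, and Adam17 26.9 and 31.7 TPM.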

How the data were processed

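Total RNA-seq tables of 2 libraries of 1 group were used. Per the file headers, the deposited expected counts are the authors' estimated counts per gene or transcript. Per the file headers, the deposited TPM values are scaled over all rows, and they sum to 1000000 with spike-in rows included (13.4% and 9.68% of TPM in replicates 1 and 2). The deposited lower and upper interval limits, a signal on the TPM scale, come with no stated level per the file headers. The deposited notes name mm10 and GENCODE M4. The aligner, quantifier and strandedness are not given in the sources used here.

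Genes were named by identifier without version from GENCODE M21 (GRCm38), matching 42462 of 43346 gene rows. Of 184 named member transcripts, 169 had the same length in both releases, and 15 did not, among them that of Nrp1 and Plxnb2-202. Start-site shares used same-length transcripts within 500 bases of a RefSeq start site. Spike-ins (6.27% and 4.45% of counts) stayed out of library sizes, and rows that name no gene took 0.000171% and 0.000151%.

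Ratios between libraries used rounded expected counts, TMM factors (edgeR 4.0.16, R 4.3.3), a prior count of 1, genes with a mean count of 10 or more, and exact Clopper-Pearson 95% intervals (scipy 1.17.1). DESeq2 1.42.0 size factors were an alternative. The ratio script was tested on simulated data. Named were all members, the 3 highest genes of each pathway group, leading transcripts that differed between libraries, were not protein coding or held under 50%, and genes past 1.5-fold. Other genes, transcripts and the printed exons were chosen after their values were seen. The members, pathway and marker lists, pairs and rules were chosen with earlier results of these data known. Sequences come from GENCODE M21 and RefSeq GRCm38.p6.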

Additional observations from a re-analysis of the deposited data

How the results depend on the processing

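No paired analysis was possible because there was only 1 group. The summed levels depended on what the TPM total and the gene hold: with TPM rescaled to gene rows without spike-ins, semaphorins had 283.8 TPM and receptors 284.6 TPM, and with protein-coding transcripts only 194.0 and 184.0 TPM, an alternative chosen after seeing the data. Neighbours called apart numbered between 9 and 11 when leaving out each library in turn, against 6 with both, since a single library asks for fewer separations (also chosen after seeing the data). With a mean count of 100 or more, 1 gene in place of 2 was over 1.5-fold apart, because Sema7a has fewer counts. The count of detected genes was 28 or 29 under every alternative run except a level of 5 TPM, which left 21. Pairs called apart, 18, became 19 and 20 in single libraries. Of the 28 leading transcripts, 26 were the same by expected counts and 24 without replicate 1. Of the class sums and pair ratios recomputed, 72 moved by more than the SD between libraries, 116 did not, and 0 called values reversed. The 116 include all values from a single library, which by construction lie within that SD of the mean. That count therefore overstates how stable the values were. Ratios between the libraries have no value without 1 of them. Depth limits Sema3g (90 and 64 counts), Plxnb3 (38 and 30) and Sema7a (14 and 18). With a pseudocount of 1 the log2 ratio of Plxnb1 to Plxnb3 was 3.05 and that of Sema7a to Plxnc1 -1.20, since a pseudocount compresses ratios of low genes.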
